A study of Mus musculus with 14 samples.

Results

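The comparison set 1 liver metastasis line, 1399M4, against 1 lung tumor line, 1399P1, of mouse small cell lung cancer, with 2 ATAC-seq libraries of each. The peak intervals of these 4 libraries, of 14 in the series, were merged wherever they overlapped by 1 bp on chromosomes 1 to 19 and X, which gave 124536 regions. A region was called open in a line when both of its libraries had a peak there and closed when neither had. By this rule 12662 regions were open in 1399M4 and closed in 1399P1 (10.2% of all), and 18708 were open in 1399P1 and closed in 1399M4 (15% of all). They are called 1399M4-only and 1399P1-only regions below, a term that refers to these 2 lines alone. A further 42065 regions (33.8%) were open in both lines, and the remaining 51101 (41.0%) had a peak in some libraries but fitted neither definition. Regions of 2 windows of chromosome 4, from 95 to 98.5 Mb and from 121 to 124 Mb, are counted apart.

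Both lines carried the genotype RPR2;Nfibf/f. RPR2 is the usual name of a mouse model in which Rb1, Trp53 and Rbl2, all tumor suppressors, are removed from lung cells, and f/f marks floxed Nfib that Cre can excise. The labels give no Cre, age, sex or passage, and leave unsaid both whether 1399M4 and 1399P1 came from 1 mouse and whether repeat libraries were made from separate cultures. Cells were grown in serum-containing medium and taken in suspension, so the tissue of origin was not present when chromatin was assayed. The other 5 lines, used here only for reference, were 12N1G and N2N1G (RPR2, lymph node metastases), 1373M1 (RPR2, liver metastasis), 1398M1 (RPR2;Nfibf/f, liver metastasis) and 1398P2 (RPR2;Nfibf/f, lung tumor). With 1 line per tissue, no test here speaks to liver against lung, and p-values measure only the spread between libraries of a line, which may be technical.

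ATAC-seq marks DNA that a transposase can reach: promoters of genes in use, enhancers and other elements from which nucleosomes have been displaced. Small cell lung cancer is a neuroendocrine carcinoma driven by factors such as NEUROD1 and INSM1, and it commonly spreads to the liver and lymph nodes. NFIB belongs to the nuclear factor I family, which binds a TTGGCA-type motif. It is known in mouse models of this cancer for raising metastasis together with wide opening of distal chromatin, and the title of the series asks which mechanisms of metastasis depend on it.

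Most line-only regions lay away from gene starts, and the few starts that were open in 1 line alone had sequence of a different kind from the starts that were open in both. Across the 250 bases before a RefSeq start (GRCm38.p6), the median CpG content relative to that expected from base composition was 0.243 for 118 windows of genes whose start was 1399M4-only. It was 0.326 for 621 windows of 1399P1-only starts, 0.721 for 13631 windows of starts open in both lines, 0.16 for 5621 windows of starts with no peak and 0.537 over all 21044 windows. The starts of both line-only classes were therefore poor in CpG, between the starts with no peak and the starts open in both lines. The printed windows show this range. They are the 5 genes of the pathway lists (described below) whose window was overlapped by a line-only region. The region covered all 250 bases at Nkx2-2 and Wnt2, and 184 at Cntn2, 175 at Col11a1 and 80 at Lamb3. Each is written 5′ to 3′ on the strand of the gene, up to the base before the start, with CpG dinucleotides in capitals. The first pair, Nkx2-2 (a homeobox factor of neuroendocrine and neural cells, chr2:147186403-147186652, minus strand) and Wnt2 (a secreted WNT ligand, chr6:18030446-18030695, minus strand), was open in 1399M4 alone. The other 3 were open in 1399P1 alone. They are Cntn2 (a contactin that guides axons, chr1:132542941-132543190, minus strand), Col11a1 (a fibrillar collagen chain, chr3:114030290-114030539, plus strand) and Lamb3 (a laminin chain of epithelial basement membranes, chr1:193301744-193301993, plus strand).
Nkx2-2: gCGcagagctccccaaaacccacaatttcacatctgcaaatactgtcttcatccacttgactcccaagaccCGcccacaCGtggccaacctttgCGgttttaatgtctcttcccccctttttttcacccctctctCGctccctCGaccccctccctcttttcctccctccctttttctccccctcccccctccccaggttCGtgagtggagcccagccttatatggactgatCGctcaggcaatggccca
Wnt2: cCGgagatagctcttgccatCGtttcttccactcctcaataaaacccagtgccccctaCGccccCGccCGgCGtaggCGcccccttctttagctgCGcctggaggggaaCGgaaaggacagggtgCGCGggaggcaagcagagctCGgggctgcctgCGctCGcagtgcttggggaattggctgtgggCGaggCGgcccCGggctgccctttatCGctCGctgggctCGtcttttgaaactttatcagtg
Cntn2: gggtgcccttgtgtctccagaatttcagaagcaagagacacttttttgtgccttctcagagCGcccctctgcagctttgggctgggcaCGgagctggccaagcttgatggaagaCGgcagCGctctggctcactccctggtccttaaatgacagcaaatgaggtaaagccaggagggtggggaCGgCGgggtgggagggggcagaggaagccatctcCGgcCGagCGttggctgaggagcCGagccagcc
Col11a1: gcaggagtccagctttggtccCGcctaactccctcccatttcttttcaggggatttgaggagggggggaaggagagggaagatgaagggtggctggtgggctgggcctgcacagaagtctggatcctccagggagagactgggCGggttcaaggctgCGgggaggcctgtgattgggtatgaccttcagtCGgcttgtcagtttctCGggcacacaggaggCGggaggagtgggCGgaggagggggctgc
Lamb3: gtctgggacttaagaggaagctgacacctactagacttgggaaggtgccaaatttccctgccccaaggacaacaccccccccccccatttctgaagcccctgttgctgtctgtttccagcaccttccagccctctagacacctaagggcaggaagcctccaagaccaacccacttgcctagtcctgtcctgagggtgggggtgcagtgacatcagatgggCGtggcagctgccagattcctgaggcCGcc

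The windows held 8 CpG at Nkx2-2, 20 at Wnt2, 10 at Cntn2, 7 at Col11a1 and 2 at Lamb3, against a median of 16 in windows of starts open in both lines and 4 and 6 in the 1399M4-only and 1399P1-only classes. Wnt2 was thus CpG-rich and Lamb3 CpG-poor within the same kind of call. A total of 18 short motifs were searched on both strands of every window: NFI as TTGGCA, AP-1 as TGANTCA, the NEUROD-type E-box as CAGATG, the ZEB-type E-box as CAGGTG, FOX as TGTTTAC, HNF4 as CAAAGTCCA, TEAD as GGAATG, RUNX as TGTGGTT, POU as ATGCAAAT, CRE as TGACGTCA, SOX as ACAATGG, the erythroid factor GATA1 as AGATAAG, NRF1 as GCATGCGC, ETS as CCGGAAGT, homeobox proteins as TAATTA, MEF2 as TAAAAATA, NR2F as GGTCAAAGG and IRF as GAAANNGAA. None of these letter strings contains another. The Lamb3 window held the NFI motif and the NEUROD-type E-box, which 11.5% and 12.3% of all windows hold. Its NFI motif lay outside the region that was open in 1399P1 alone, and its E-box inside. A further RefSeq start of Lamb3, not printed, had a window wholly under the region, with a ZEB-type E-box and a TEAD motif. The Nkx2-2 window held the NEUROD-type E-box, and those of Wnt2, Cntn2 and Col11a1 held none of the 18.

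Over the classes, the CpG-bearing motifs NRF1 and ETS were most frequent in windows of starts open in both lines. NRF1 stood in 4.17% of windows of starts open in both lines, in 0.847% of 1399M4-only and in 0.966% of 1399P1-only windows. The ETS motif stood in 5.55%, 1.69% and 0.805% of them. CRE, which also bears a CpG, stood in 2.63%, 2.54% and 0.805%, so it was not rarer in 1399M4-only windows to the same degree. The 1399M4-only class has 118 windows, so its low shares rest on very few of them. The NFI motif was present in 16.7% of 1399P1-only and 11.0% of 1399M4-only windows, beside 15.4% of windows with no peak, 9.49% of those open in both lines and 11.5% of all. AP-1 was present in 10.8%, 10.2%, 10.6%, 4.06% and 6.17% of the same classes in that order. For both motifs the 1399P1-only share was therefore close to that of windows with no peak. A match is only a stretch of letters and was not tested as a site.

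A second set of sequences is shown because it came from a run of neighbouring regions that were closed in 1399M4. The Mir344 cluster on chromosome 7 holds 13 annotated hairpins between chr7:61683124-61683192 (Mir344d-1) and chr7:62085223-62085310 (Mir344i), close to the imprinted genes Ndn, Magel2 and Mkrn3. It was picked out after its values were seen. A region covered 7 of the hairpins, and 6 of these regions were 1399P1-only. MicroRNAs pair with their targets mainly through the seed, bases 2 to 8, printed in capitals (mature sequences from RefSeq). The first pair below shares a seed, and the other 3 each have their own.
mmu-miR-344-3p: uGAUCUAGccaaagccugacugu
mmu-miR-344c-3p: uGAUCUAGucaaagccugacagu
mmu-miR-344d-3p: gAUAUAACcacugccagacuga
mmu-miR-344f-3p: cUCUAGCCaggaccugacuac
mmu-miR-344i: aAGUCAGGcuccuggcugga

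The 4 libraries were of like size. Peaks on the chromosomes used numbered 77332 and 74433 in 1399M4 and 84199 and 79168 in 1399P1. Read totals were not among the values used. The lowest local background that the peak statistics imply, a measure of depth, was 0.999 and 0.637 fragments per bp in 1399M4 and 0.803 and 0.893 in 1399P1, so 1399M4 library 2 was the shallowest of the 4. The share of regions with a peak in either library that had one in both (the Jaccard index) was 0.688 within 1399M4 and 0.706 within 1399P1, and 0.454 to 0.48 between libraries of different lines. Absence of a peak means absence at that depth. In bulk chromatin, a site open in few cells and a site weakly open in many cannot be told apart.

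Both lines carried open neuroendocrine genes, and most starts of liver, blood, fibroblast and endothelial markers had no peak. The starts of 18 of 18 neuroendocrine secretory and marker genes and of 12 of 14 neuroendocrine factors were open in both lines. Among all 21627 protein-coding genes, 13192 had a start open in both lines. Of the 13 hepatocyte markers, 8 had no start peak in any of the 4 libraries and 2 were open in both lines, and the start of Ttr, the thyroxine carrier transthyretin, was open in 1399P1 alone. Regions within 10 kb of these genes differed in either direction: Alb (albumin) had 1 and 1 in 1399M4 and 0 and 0 in 1399P1, Tat 3 and 3 against 2 and 2, Cyp2e1 2 and 2 against 0 and 1, and Cps1 1 and 0 against 3 and 3. No start peak was found for 10 of 12 lymphocyte and myeloid markers, 9 of 12 fibroblast and endothelium markers and 4 of 13 lung epithelium markers, against 29.8% of all protein-coding genes. Of the 13 lung epithelium markers, 6 had a start open in both lines. The start of Sftpb (a surfactant protein) was open in 1399P1 alone. Foxj1 (the factor of ciliated cells) had 5, 4, 2 and 2 regions in 1399M4 libraries 1 and 2 and 1399P1 libraries 1 and 2. The start of Tek, an endothelial receptor, was open in 1399P1 alone.

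The starts of all 4 genes targeted in these mice, Rb1, Trp53, Rbl2 and Nfib, were open in both lines. Open chromatin at a start does not report whether a conditional allele was deleted further inside the gene, so this does not check the genotype. Nfib itself had 12 and 12 regions in 1399M4 against 18 and 18 in 1399P1.

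Outside the chromosome 4 windows, 12371 of 123421 regions were 1399M4-only, 18371 were 1399P1-only and 41962 were open in both lines. The line-only regions were narrow and mostly distal. Their median width was 362 bp in 1399M4 and 445 bp in 1399P1, against 714 bp for regions open in both lines. Within 1 kb of a gene start lay 303 of the 1399M4-only regions (2.45%), 900 of the 1399P1-only regions (4.9%) and 12683 of the shared regions (30.2%). Gene bodies held 54.2%, 48.2% and 36.5% of the 3 classes, and 43.3%, 46.9% and 33.3% lay between genes.

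Line-only regions were also the weaker part of each peak list. Ranked within a library by the authors' fold enrichment, they had a median percentile of 39.8 in 1399M4 and 40.1 in 1399P1, against 68.7 for shared regions. Among regions open in 1399M4, the share that was closed in 1399P1 was 39.7% in the lowest 20% of ranks and 3.99% in the highest 20%. For regions open in 1399P1 the share closed in 1399M4 went from 49.6% to 5.06%. Nearly all strong sites were therefore open in both lines, in either direction.

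**Figure D1:**
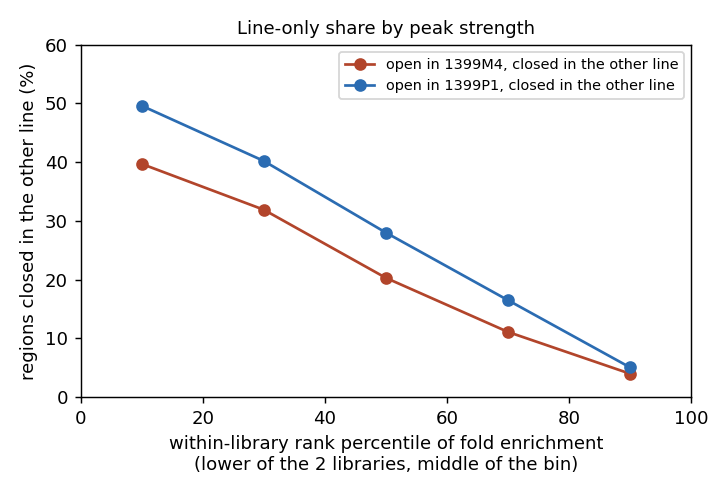
Share of the regions open in 1 line that were closed in the other (y axis, %), with the chromosome 4 windows left out. The x axis is the rank percentile of their fold enrichment within the library (the lower of the 2 libraries, points at the middle of 5 bins). The share declines from 39.7% to 3.99% for 1399M4 and from 49.6% to 5.06% for 1399P1.

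The strongest exceptions had a plain pattern in the other lines. The 5 highest ranked 1399M4-only regions lay between genes nearest to Rgmb (chr17:16157755-16158371, 326509 bp from the gene), Tmc1 (chr19:21150948-21151260) and Chordc1 (chr9:17508830-17509128), and within Nos1ap (chr1:170521567-170522012) and Lrp11 (chr10:7619787-7620209). The Lrp11 region also had a peak in all 4 libraries of 1373M1 and 1398M1, while the other 4 had none in any of the other 10 libraries. The 5 highest ranked 1399P1-only regions lay within Amph (chr13:19121732-19122150), Cog5 (chr12:31785917-31786460), Ccdc171 (chr4:83831044-83831759) and Mrvi1 (chr7:110953564-110954475) and near Fat1 (chr8:44647858-44648324). All 5 had a peak in all 10 other libraries, so among the 14 libraries they were missing only from the pair of 1399M4.

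The 2 directions differed in the same way over all regions. Of the 12371 regions open in 1399M4 alone, 7037 (56.9%) had no peak in any of the 10 libraries of the other lines, against 1722 (9.37%) of the 18371 open in 1399P1 alone and 860 (2.05%) of those open in both. In the opposite extreme, 772 of the 1399P1-only regions (4.2%) were open in all 5 other lines, against 8 of the 1399M4-only regions (0.0647%). Line by line, 1399P1-only regions were open in 47.7% of cases in 12N1G, 48.8% in N2N1G, 37.1% in 1373M1, 43.2% in 1398M1 and 15.5% in 1398P2. The matching shares of 1399M4-only regions were 7.7%, 7.32%, 13.0%, 10.1% and 0.825%. The line 1398P2 contributes low shares throughout, since its library 2 held 33519 peaks against 64975 to 84199 in the other 13 libraries. Leaving out 1 library of the pair at a time moved the 1399M4 share with no peak elsewhere between 47.3% and 61.1% and the 1399P1 share between 8.45% and 16.8%.

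**Figure D2:**
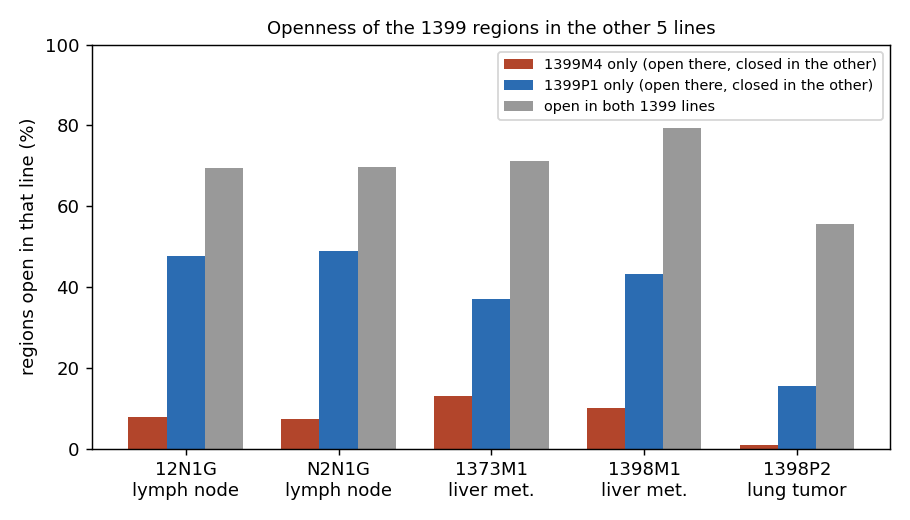
Percent of 1399M4-only, 1399P1-only and shared regions outside the chromosome 4 windows (y axis) that were open in each of the 5 other lines (x axis, with the tissue of origin). In every line the bar of the 1399P1-only regions, 15.5% to 48.8%, stands above that of the 1399M4-only regions, 0.825% to 13.0%.

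The other pair with a shared number, 1398M1 (liver metastasis) and 1398P2 (lung tumor), shares no library with the 1399 lines and so gives a separate measurement. Of the 1399M4-only regions, 715 (5.78%) were open in 1398M1 and closed in 1398P2 and 56 (0.453%) were the reverse. Of the 1399P1-only regions, 454 (2.47%) were open in 1398P2 and closed in 1398M1, the same order of tissues, and 1542 (8.39%) were the reverse. These counts rest on the small library 2 of 1398P2. With library 1 alone standing for 1398P2, they were 727 and 1256 for the 1399M4-only regions, and 2544 and 1551 for the 1399P1-only regions. Open and closed in 1398P2 were then judged on 1 library, and in 1398M1 on 2. The share open in 1398P2 and closed in 1398M1 rose in every class. It went from 2.34% to 8.97% of regions open in both 1399 lines, and from 1.08% to 15.2% of the remaining regions. The reverse went from 2.46% to 2.62% and from 5.52% to 5.89%. The majority therefore turned in both line-only classes, as it did among the other regions. No common liver-against-lung direction can be read from the pair. Over all 7 lines, 131 regions were open in the 5 metastasis lines and closed in both lung tumor lines, and 349 had the opposite pattern.

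Meis1 stood out among the 131, with 3 of these regions at or near it. Bcor was also the nearest gene of 3, but only 1 lay within it, and the others were 221493 and 346106 bp away. Meis1 encodes a homeobox partner of HOX and PBX proteins and was chosen here after its values were seen. It had 12 and 14 regions in 1399M4 and 3 and 1 in 1399P1. In a merge over all 14 libraries it had 8 to 13 regions in every other metastasis library, and 1 and 0 in 1398P2. Its log2 difference between 1399M4 and 1399P1 was 2.61 (SE 0.33). These numbers include the 3 regions that brought Meis1 out, which had to be open in 1399M4 and closed in 1399P1. They are therefore no separate support, and no p-value is given. Local background there was 2.2 and 1.29 times the floor in 1399M4 and 1.0 and 1.03 in 1399P1, and its part in the difference was not tested.

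The ratio of 1399P1-only to 1399M4-only regions varied between chromosomes. Over the genome the order of the 2 counts turned without 1399M4 library 2: 1399M4-only regions then numbered 22001 and 1399P1-only regions 20638. In that setting 1399M4 was judged on 1 library and 1399P1 on 2. Without 1399M4 library 1 the counts were 20835 and 22940. On chromosome 12, 340 regions (6.74%) were 1399M4-only and 1096 (21.7%) were 1399P1-only, a ratio of 3.22. The next highest ratios were 2.29 on chromosome 9, 2.12 on chromosome 6 and 1.91 on chromosome 1. Chromosome 5 had the lowest, 0.978, with 1007 regions against 985. Background over the floor on chromosome 12 was 1.16 and 1.3 in 1399M4 and 1.73 and 1.62 in 1399P1. Since background follows the number of DNA copies as well as general accessibility, these cannot be told apart here, and their part in the counts was not tested.

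**Figure D3:**
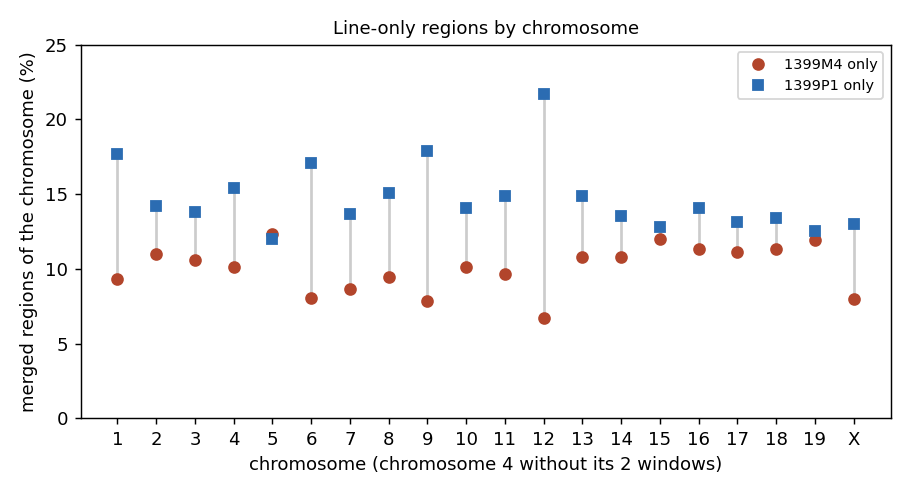
Percent of the merged regions of each chromosome (x axis) that were 1399M4-only (circles) or 1399P1-only (squares), with the 2 windows of chromosome 4 left out. Chromosome 12 has the widest gap, 6.74% against 21.7%, and on chromosome 5 the points nearly coincide at 12.3% and 12.0%.

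The windows of chromosome 4 held most of their line-only regions in opposite lines. From 95 to 98.5 Mb, 325 of 578 regions (56.2%) were 1399P1-only and 4 were 1399M4-only. From 121 to 124 Mb, 287 of 537 regions (53.4%) were 1399M4-only and 12 were 1399P1-only. Background moved with the peaks. In the first window it was 17.1 and 21.5 times the floor in 1399P1, 1.24 and 1.61 in 1399M4 and 1.46 to 2.83 in the 10 other libraries. In the second it was 26.0 and 32.8 in 1399M4, 3.23 and 2.93 in 1399P1, 3.28 and 2.91 in 1398P2 and 18.8 to 42.9 in the other metastasis libraries. The second window holds Mycl, a MYC family oncogene that is often amplified in this cancer and that itself had 4, 4, 3 and 3 regions. Copy number was not measured, and more open chromatin in these windows cannot be told apart from more copies of the DNA.

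Steps in background also lay outside these windows. There, 42 bins of 1 Mb had raised background in 1399M4 and 61 in 1399P1, and 2322 had neither. From 39 to 40 Mb of chromosome 17, background was 283.8 and 190.0 times the floor in 1399P1 and 1.0 and 1.82 in 1399M4. Each value is a median over the summits of 1 bin, with the very strongest summits left out. No filter for repeated sequence was applied here, so this bin is uncertain and is not ranked against the windows. On distal chromosome 4, from 150 to 151 Mb the background was 5.82 and 6.04 in 1399M4 and 2.28 and 2.26 in 1399P1. The neighbouring bin from 151 to 152 Mb held 37 regions of 1399M4 alone and 7 of 1399P1 alone.

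Starts of genes were mostly shared. Of the 15186 protein-coding genes with a start peak in any of the 4 libraries, 13192 had a start open in both lines, 157 (1.03%) a 1399M4-only start and 623 (4.1%) a 1399P1-only start. With 1 library left out at a time, these numbered 198 to 330 and 698 to 970. The highest ranked 1399M4-only starts were at Olfr477 (an olfactory receptor), Prss51, Lmod2 (leiomodin, an actin nucleator of muscle), Ptprcap, Tnfsf14 (a TNF family cytokine), Minar2, Krt20 (an intestinal keratin), Xlr3c, Nol3 (an apoptosis repressor) and Csta2. The highest ranked 1399P1-only starts were at Sybu (syntabulin, a linker for axonal transport), Deup1 (a protein of the centriole-forming deuterosome), Fgl1, Nr1h3 (the oxysterol receptor LXR-alpha), Fgf22, Acot12, AA986860, 5730409E04Rik, Il2 and Ttll3. Prss51, Ptprcap, Minar2, Nol3, Sybu and Fgl1 had no RefSeq start entry, so either end of the gene was taken. Their peak may therefore lie at the far end of the gene. Both sets hold genes of many tissues. Neither set of 10 contained a gene of the neuroendocrine lists, but these hold only 14 and 18 of 21627 protein-coding genes.

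To compare genes, regions from 10 kb before to 10 kb past each gene were counted in each library and tested with limma on log2 of the scaled number plus 0.5. Genes averaging 3 or more regions numbered 8998. Of these, 636 (7.07%) had more regions in 1399M4 and 626 (6.96%) more in 1399P1 at a Benjamini-Hochberg adjusted p under 0.05. Below, a gene is described as having changed only where a second fit, which pools the spread of genes with like counts, called it too. That left 630 genes (7%) with more regions in 1399M4 and 577 (6.41%) with more in 1399P1. Over all genes tested, the counts of the lines did not overlap for 18.1% in favour of 1399M4 and 20.8% in favour of 1399P1, and the median log2 difference was 0.05. With all 7 lines sharing 1 estimate of the spread, limma called 158 and 241 genes, among them 395 of the 1207 called here, and adjusted p-values from that fit are given below for most genes that lost their call. Without scaling by library, 339 of the 1207 stayed called. Of the 1207 genes, 163 lay where background differed by over 1.5 times in either direction.

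The genes named next, in either direction, were drawn from called genes whose counts did not overlap between the lines. Of those with more regions in 1399M4, outside the windows, the 10 with the smallest limma p are given first. Foxp2, a forkhead factor of brain and lung development (chr6:14901349-15441977), had 10 and 10 regions in 1399M4 and 2 and 2 in 1399P1 (log2 difference 2.12, SE 0.17, limma adjusted p = 0.000227, and 0.0588 with all 14 libraries). Negr1, an adhesion protein of neurites (chr3:156561790-157316464), had 18 and 20 against 4 and 5 (log2 difference 2.02, SE 0.18, limma adjusted p = 0.000415). Nrg3, a ligand of the receptor ERBB4 (chr14:38365102-39473235), had 12 and 12 against 4 and 3 (log2 difference 1.71, SE 0.17, limma adjusted p = 0.000867). In each of the 3 the lines stood apart by the rule that chose them, and a small p also favours libraries with like counts. Background at Nrg3 was 1.0 and 1.05 against 1.0 and 1.0 times the floor, that is, alike in the lines, and its part was not tested.

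The other 7 genes of this set were chosen by the same rule. Xpo6, the exportin of actin, had 5 and 5 regions against 1 and 1, and so did the gene model LOC115486439. Gnai3 and Gnb1, both subunits of heterotrimeric G proteins, had 8 and 8 against 2 and 2, and 10 and 10 against 3 and 3. Ajap1, an adherens junction protein, had 12 and 9 against 2 and 2, and Gm38821 had 7 and 4 against 1 and 1. Camta1, a calmodulin-binding transcription activator, had 81 and 75 against 50 and 42 (log2 difference 0.82, SE 0.08), with a background of 3.13 and 3.31 against 2.01 and 1.93. Ajap1, Camta1 and Gnb1 lie on distal chromosome 4, where Camta1 falls in a stretch with raised background in 1399M4. Background was 2.22 and 2.35 in 1399M4 against 1.25 and 1.6 in 1399P1 at Ajap1. At Gnb1 it was nearly alike, 4.47 and 4.53 against 4.35 and 3.73. The part of background in these differences was not tested.

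Among genes with more regions in 1399P1, the calcium release channel Ryr3 (chr2:112631354-113217405) had 25 and 23 regions in 1399P1 and 3 and 2 in 1399M4 (log2 difference -3.0, SE 0.18, limma adjusted p = 3.26e-05). Background in the 1 Mb bin at the middle of Ryr3 was 1.62 and 1.54 in 1399P1 against 3.08 and 2.74 in 1399M4. Its part in the difference was not tested. Ephb1, an ephrin receptor of axon guidance (chr9:101922128-102354693), had 9 and 9 against 1 and 1 (log2 difference -2.61, SE 0.14, limma adjusted p = 2.34e-05). Esrrg, an orphan nuclear receptor (chr1:187608510-188214885), had 13 and 13 against 2 and 2 (log2 difference -2.38, SE 0.16, limma adjusted p = 8.76e-05), and its start was open in 1399P1 alone. Each of these was nearly empty in 1399M4 and filled in 1399P1.

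These 3 genes were not filled in 1399P1 alone. In the merge over all 14 libraries, Ryr3 had 13 to 20 regions in the 4 lymph node libraries and 2 in each library of 1373M1, Ephb1 had 18 to 22 and 1, and Esrrg had 17 to 22 and 1. Other genes of this set were D7Ertd443e (0 and 0 regions in 1399M4, 9 and 7 in 1399P1), Ppfia2, a liprin of the presynaptic zone (1 and 1 against 6 and 6), Sp100, a nuclear body protein (1 and 1 against 6 and 5), Begain, a postsynaptic scaffold protein (1 and 1 against 6 and 5), Rgs6, a regulator of G protein signalling (3 and 3 against 17 and 17), and the neurexin Nrxn3 (20 and 19 against 50 and 50). Nrxn3 had a limma adjusted p of 0.0578 with all 14 libraries, where Ppfia2 and Sp100 were not tested. Begain, Rgs6 and Nrxn3 are on chromosome 12.

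In the first chromosome 4 window, Nfia had 13 and 12 regions in 1399M4 and 87 and 78 in 1399P1 (log2 difference -2.61, SE 0.09, limma adjusted p = 1.04e-06). Fggy had 10 and 8 against 64 and 58, and Cyp2j8 had 0 and 0 against 8 and 8, with 0 in all 10 other libraries. In the second window Macf1, a cytoskeletal linker, had 49 and 53 in 1399M4 against 17 and 16 in 1399P1, and Gm10573 had 8 and 8 against 0 and 0. These are the places with the background steps given above.

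Long genes held most line-only regions by number: Macf1 (30), Camta1 (28), Rbfox1 (21), Celf2 (16) and Rere (14) among those of 1399M4, and Nfia (55), Fggy (40), Nrxn3 (24), Dpp6 (22), Cdh13 (21), Ptprn2 (20), Ryr3 (18) and Cntnap2 (17) among those of 1399P1. Rbfox1, an RNA splicing factor of neurons, had 51 and 52 regions against 42 and 40, and Cdh13, an atypical cadherin, 49 and 41 against 60 and 57. Both missed the call of the second fit, so the number of line-only regions alone did not set them apart. Celf2 had a limma adjusted p of 0.416 with all 14 libraries.

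**Figure D4:**
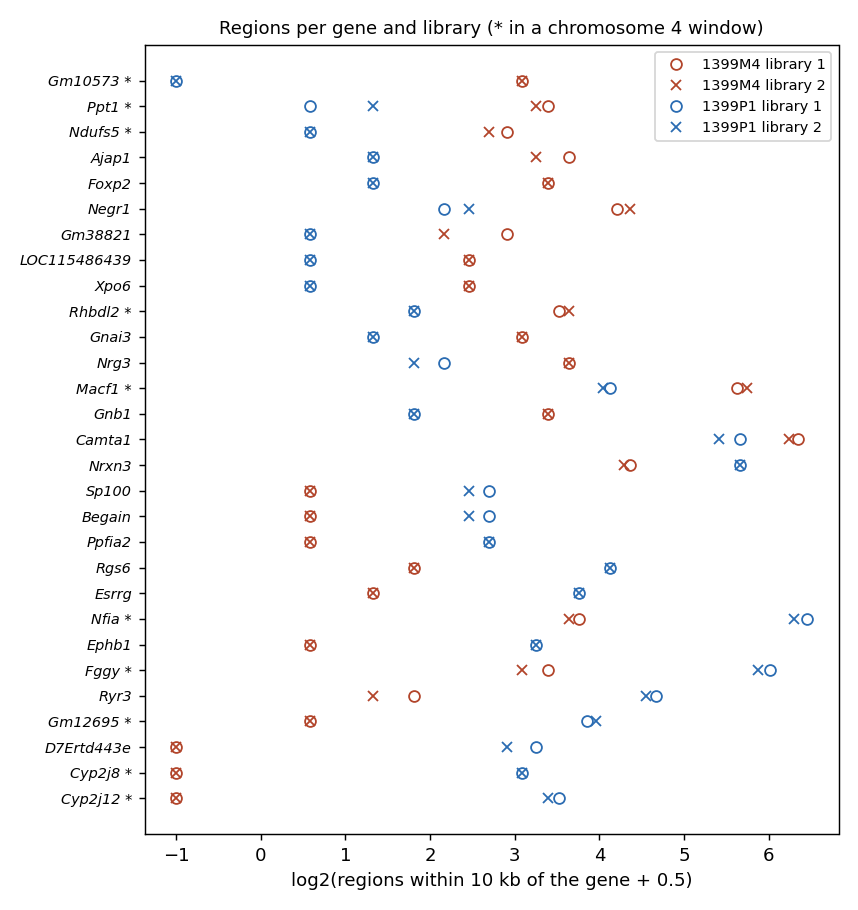
Regions within 10 kb of a gene, as log2 of the number plus 0.5 (x axis), in each of the 4 libraries for genes outside and inside the chromosome 4 windows (asterisk), taken from those with the smallest limma p. The symbols of 1399M4 and 1399P1 do not overlap for any gene shown, by the rule that chose them. The libraries of a line nearly coincide, which a small limma p favours.

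**Figure D5:**
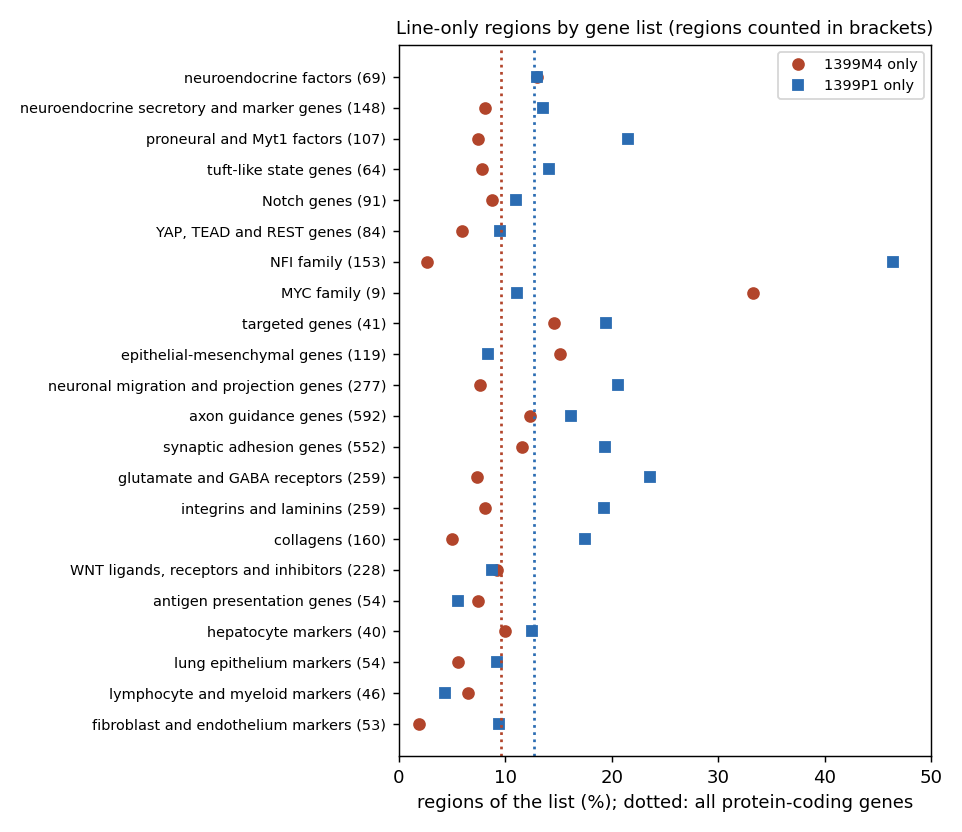
Percent of the regions at the genes of each list (y axis, regions in brackets) that were 1399M4-only (circles) or 1399P1-only (squares). Dotted lines give 9.61% and 12.7% for all protein-coding genes, and the glutamate and GABA receptors lie at 7.34% and 23.6%.

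Gene lists were read against 13.4% of all tested genes called by both fits, a median log2 difference of 0.05, and 9.61% 1399M4-only and 12.7% 1399P1-only regions at protein-coding genes. Lists were not tested as sets, and the long genes among them gather many regions. Of the neuroendocrine factors and the secretory and marker genes, 14.3% and 18.2% of the tested genes were called, near the share of all genes. Of 7 tested neuroendocrine factors, Prox1 had more regions in 1399M4 (12 and 10 against 7 and 7, limma adjusted p = 0.0218, and 0.157 with all 14 libraries), and the start of Nkx2-2 was 1399M4-only. Of 11 tested secretory and marker genes, Cpe, which trims peptide hormones, had 2 and 3 regions in 1399M4 against 7 and 6 in 1399P1, and Snap25, a protein of vesicle fusion, 4 and 3 against 6 and 6. Their limma adjusted p was 0.00819 and 0.0407, and 0.0669 and 0.0623 with all 14 libraries. Of 5 proneural and Myt1 factors, Myt1l had 17 and 19 against 31 and 33 (limma adjusted p = 0.00525, and 0.197 with all 14).

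Tuft-like state genes split. Of 6 tested, Avil, an actin regulator and tuft cell marker, had 6 and 7 regions in 1399M4 against 3 and 3 in 1399P1, with a 1399M4-only start (limma adjusted p = 0.00628, and 0.0139 with all 14). Dclk1, a kinase that marks tuft cells and neurons, had 6 and 7 against 17 and 13 (limma adjusted p = 0.00429, and 0.0769 with all 14). None of 9 Notch genes, 5 YAP, TEAD and REST genes or 18 WNT genes was called by both fits. These include the receptors and targets that mark non-neuroendocrine states of this cancer.

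All 4 NFI genes had more regions in 1399P1, with a median log2 difference of -0.46, and 2 of them passed. Nfia lies in the first window. Nfib differed by -0.51 on the log2 scale (SE 0.12, limma adjusted p = 0.0308, and 0.0682 with all 14). Its background was 1.29 and 1.19 times the floor in 1399M4 and 2.43 and 2.48 in 1399P1, and its part in the difference was not tested. The start of Nfix was open in 1399P1 alone. Rb1, a targeted gene, had 10 and 9 regions in 1399M4 against 6 and 6 in 1399P1 (limma adjusted p = 0.0214, and 0.204 with all 14). Of 10 tested epithelial-mesenchymal genes, Zeb2, a repressor of epithelial genes, had 9 and 10 against 5 and 4 (log2 difference 1.06, SE 0.17, limma adjusted p = 0.00479, and 0.414 with all 14).

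Neurotransmitter receptors had the largest share of called genes among the lists with over 10 tested genes. Of 18 tested glutamate and GABA receptor genes, 7 had more regions in 1399P1 and 2 more in 1399M4 (50.0% called), with a median log2 difference of -0.3. At these genes 23.6% of 259 regions were 1399P1-only and 7.34% 1399M4-only. The NMDA receptor subunit Grin2a had 6 and 4 regions in 1399M4 against 15 and 16 in 1399P1 (log2 difference -1.51, SE 0.18, limma adjusted p = 0.00212). Its partner Grin2b had 4 and 3 against 11 and 10 (-1.41, SE 0.17, limma adjusted p = 0.00202). The kainate receptor subunit Grik3 had 1 and 2 against 10 and 8 (-2.23, SE 0.26, limma adjusted p = 0.00182), on a stretch of chromosome 4 with a background of 1.2 and 1.1 against 2.24 and 2.17. The starts of Gria3 and Grin2a were open in 1399P1 alone.

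With all 14 libraries in the limma fit, Grin2a, Grin2b, Grik3 and Grm5 stayed below 0.05, at 0.0316, 0.00183, 0.0147 and 0.0453. Gria1 (an AMPA receptor subunit, 4 and 3 against 9 and 8) and Grik4 (13 and 12 against 22 and 21) did not, at 0.634 and 0.287. The genes with more regions in 1399M4 were Grik5 (8 and 8 against 6 and 5) and the GABA-A receptor subunit Gabrg3 (4 and 5 against 1 and 2), at 0.0839 and 0.218. Across lines Grin2b had 18 to 21 regions in the lymph node libraries and 0 in 1373M1, and 1399P1 lay between the lymph node libraries and all the others.

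Neuronal migration and projection genes leaned the same way. Of 15 tested, 5 had more regions in 1399P1 and Map2, a dendritic microtubule protein, had more in 1399M4 (16 and 13 against 9 and 9). The median log2 difference was -0.34, and 20.6% of the regions were 1399P1-only against 7.58%. The 5 were the adhesion proteins Nrcam (5 and 4 against 12 and 12), Chl1 (6 and 7 against 13 and 12) and Cntn2 (4 and 4 against 8 and 6), the tau gene Mapt (6 and 7 against 12 and 13) and the reelin adaptor Dab1 (26 and 31 against 50 and 48). With all 14 libraries, the limma adjusted p was 0.00459 for Nrcam, 0.0253 for Chl1 and 0.0453 for Map2, and 0.29, 0.0937 and 0.317 for Cntn2, Mapt and Dab1.

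Of 18 tested synaptic adhesion genes, 5 had more regions in 1399P1 and the atypical cadherin Fat3 had more in 1399M4 (29 and 31 against 22 and 20). The 5 were Nrxn3, the teneurin Tenm3 (4 and 4 against 11 and 14), Cntnap2 (35 and 35 against 49 and 49), Cntnap5a (5 and 6 against 14 and 11) and the latrophilin Adgrl3 (4 and 2 against 10 and 10). Only Tenm3 and Cntnap5a stayed below 0.05 in the limma fit of all 14 libraries, at 0.00382 and 0.0392, while Nrxn3 had 0.0578, Adgrl3 0.0901, Fat3 0.388 and Cntnap2 0.464. Of 31 tested axon guidance genes, 4 had more regions in 1399P1 (Ephb1, Plxna2, Unc5a and Unc5d) and 2 more in 1399M4 (the netrin Ntn1, 12 and 12 against 7 and 7, and Sema5a, 20 and 18 against 11 and 12). That is 19.4% called with a median of 0.03, close to all genes in direction. With all 14 libraries Ephb1, Plxna2 and Ntn1 stayed called at 0.0409, 0.038 and 0.0117, and Unc5a, Unc5d and Sema5a did not, at 0.0743, 0.0575 and 0.413.

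Matrix and adhesion genes had a median log2 difference of -0.09, both for integrins and laminins and for collagens. Of the tested genes 23.8% and 33.3% were called, against 13.4% of all, and most of these had more regions in 1399P1. At these lists 19.3% and 17.5% of regions were 1399P1-only, against 12.7% for all protein-coding genes. The 1399M4-only shares were 8.11% and 5.0%, against 9.61%. Of 21 tested integrin and laminin genes, Itga1, Itga2, Lama4 and Lamb3 had more regions in 1399P1, and Itgb3 more in 1399M4. Lamb3, whose window is printed above, had 3 and 2 regions against 11 and 7 (log2 difference -1.6, SE 0.23, limma adjusted p = 0.00293, and 0.298 with all 14), and the collagen-binding integrin Itga2 had 2 and 2 against 6 and 6. With all 14 libraries the p was 0.0467 for Itga1, 0.0654 for Itga2, 0.133 for Lama4 and 0.18 for Itgb3. Of 12 tested collagens, Col5a1, Col23a1 and Col27a1 had more in 1399P1 and Col14a1 more in 1399M4. Col27a1 had 4 and 3 against 13 and 11. With all 14 libraries only Col23a1 stayed below 0.05, at 0.0496, and Col5a1, Col27a1 and Col14a1 had 0.218, 0.236 and 0.202. Of 8 antigen presentation genes, Nlrc5, the transactivator of MHC class I genes, had more regions in 1399P1 (limma adjusted p = 0.0306, and 0.0578 with all 14). All 12 starts of that list were open in both lines, beside 13192 of those of all 21627 protein-coding genes.

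The Mir344 hairpins, whose sequences are given above, showed the pattern of the strongest 1399P1-only regions at a finer scale. Of 1005 hairpins, 18 had a 1399M4-only region within 1 kb, 36 a 1399P1-only region and 167 a region open in both lines, and 6 of the 36 were Mir344d-2, Mir344c, Mir344, Mir344-2, Mir344f and Mir344i. Mir344c lay at the 93.0 and 96.1 percentiles of fold enrichment in the 1399P1 libraries, and Mir344d-2 at 45.5 and 46.6. The regions at Mir344c, Mir344, Mir344-2, Mir344f and Mir344i had a peak in all 10 libraries of the other lines, so among the 14 libraries only 1399M4 lacked them. Mir344d-2 had one in 8, all but those of 1398P2. The region at Mir344g was at the 98.1 and 92.8 percentiles in 1399P1 and at 38.6 in 1399M4 library 2, with no peak in library 1.

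Of 13 regions within the cluster and 100 kb on either side, 10 were 1399P1-only and none was 1399M4-only. Background there was 1.0 to 1.05 times the floor in 1399M4 and 1.17 to 1.52 in 1399P1, and its part was not tested. The hairpins are near copies of each other, and how reads that match several copies were placed is not given in the sources used here, so single hairpins of the cluster are uncertain. Other line-only regions lay near Mir140 in 1399M4 (chr8:107552106-107552623) and, in 1399P1, near Mir130a (chr2:84741978-84742873), Mir139 (chr7:101476040-101476936) and Mir494 (chr12:109714992-109715676). Mir494 belongs to the imprinted Dlk1-Dio3 domain on chromosome 12.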

How the data were processed

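ATAC-seq was run on 7 cell lines with 2 libraries each, and 1 peak list per library, not pooled, was used. The tools named per the submitters' processing notes were MACS2, Bowtie2, SAMtools, Picard and cutadapt 2.10, with the builds mm10 and GRCm38, but settings are not given in the sources. The authors deposited, for each summit, a fold enrichment (a ratio to local background), a -log10 p-value and a -log10 q-value (lowest 1.3), and a score that was not used. Fold enrichment served only to rank peaks within a library. Fold and p together gave pileup and background under a Poisson model (96.0% or more of pileups whole in the 4 libraries), and the lowest background, the floor, stands for depth. Peaks were merged at 1 bp overlap on chromosomes 1 to 19 and X. Starts came from RefSeq (GRCm38.p6) for 17273 genes and from either gene end for 4354 without an entry, and regions were assigned within 1 kb of a start.

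Regions within 10 kb of a gene were scaled by the total over genes and tested as log2(number + 0.5) with limma 3.58.1, run under R 4.3.3 (moderated variances with trend, genes averaging 3 regions or more, Benjamini-Hochberg at 0.05). Fold changes on this scale are understated at low numbers. On data simulated for 9223 genes of this comparison the fit called 24 of 95 genes changed 2-fold, 49 of 94 changed 4-fold and 511 of 9034 unchanged genes. For that reason 3 other estimates of the spread were tried with the real counts of calls in view, and a gene counts as changed only where the spread pooled over 10 bins of genes called it too (19 of 95, 49 of 94 and 2 of 9034 in the simulation). The simulation holds sampling spread alone. Named genes are all list genes with a call, the 10 per direction with the smallest limma p whose libraries do not overlap, 5 per window, the 10 per direction with most line-only regions, the 5 highest ranked regions and the 10 highest ranked starts. The members and lists were chosen with earlier results of these data known. Other tools were Python 3.11.15, pandas 2.3.3, numpy 2.4.6, scipy 1.17.1 and matplotlib 3.10.9. Alternatives covered peak threshold, equal numbers of peaks, overlap rule, start distance, gene window, pseudocount, filter, scaling, samples in the fit, replicate block and leaving out each library. Some genes and motifs that these rules name are not reported here.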

Additional observations from a re-analysis of the deposited data

Results flagged for a closer look

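For 7 of the 30 genes with the smallest limma p, the numbers of regions, scaled by each library's total over genes, stood apart one way in the 1399 pair and the other way in the 1398 pair, and the difference between the pairs was not tested. On the log2(number + 0.5) scale, metastasis line minus lung tumor line, LOC115486439 had 1.88 in the 1399 pair and -1.03 in the 1398 pair, and Camta1 0.81 and -0.56. Unscaled, Camta1 had 32 and 33 regions in 1398M1 and 66 and 22 in 1398P2, which overlap, so its direction there rests on the scaling of the small library 2. Ppfia2 had -1.79 and 2.19, Rgs6 -2.25 and 0.92, and Nrxn3 -1.28 and 1.23. In the first chromosome 4 window, Nfia had -2.61 and 0.73, and Gm12695 -3.23 and 1.58. A further 6 genes moved the same way in both pairs, among them Foxp2 (1.95 and 1.48) and Nrg3 (1.69 and 1.88), and 17 overlapped between the 1398 lines. Library 2 of 1398P2, with 33519 peaks, takes part in each 1398 value.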

How the results depend on the processing

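None of the 76 genes named with a call changed sign under an alternative that tested it; 42 of 74 kept their call with all 14 libraries, 41 of 76 without scaling and 47 of 69 with equal peaks. Counts of regions rest on both libraries of a line. With 1 left out at a time, 1399M4-only regions numbered 14760 to 22001 and 1399P1-only regions 20638 to 28991. Line-only starts then numbered 198 to 330 and 698 to 970. The line that lost a library was judged on 1 library and the other line on 2. Without 1399M4 replicate 2 the order of the regions turned (22001 against 20638). Under the other alternatives (stricter q, equal peaks, summits, merge over 14 libraries, 2 kb) both counts stayed within 1.5 times.

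In the 1398 pair, 1399M4-only regions with the same and the opposite direction numbered 727 and 1256 without 1398P2 replicate 2, 1195 and 89 without 1398P2 replicate 1, 550 and 19 at a -log10 q of at least 5, 421 and 180 with equal peaks, and 873 to 1048 and 76 to 113 with a library of the 1399 pair left out. For 1399P1-only regions these were 2544 and 1551, 475 and 5785, 250 and 1123, 720 and 495, and 514 to 584 and 1677 to 2262. The share with no peak in the other 10 libraries was 58.2% and 8.02% at the stricter q and 56.8% and 6.37% with equal peaks, and 47.3% to 61.1% and 8.45% to 16.8% with a library left out.

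limma called 158 and 241 genes (more in 1399M4 and more in 1399P1) with all 14 libraries, 366 and 416 over gene bodies, 840 and 1116 with no filter, and 666 to 689 and 474 to 878 with a library left out. With a spread pooled over 10 bins of genes it called 858 and 768, and 160 and 231 with all 14 libraries. Under the replicate block it called 0 and 0 genes, with 2308 at an unadjusted p under 0.05, and 893 and 805 with the pooled spread and the block. The correlation of replicate deviations was 0.04. The labels do not say how replicates were made. This value alone therefore cannot decide whether libraries with the same replicate number shared a batch.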
